A study of Homo sapiens with 9 samples.

Results

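The transcripts described here are 10 genes that mark the absorptive epithelium of the human colon: the transcription factors CDX1, CDX2 and HNF4A, the brush border protein VIL1, the surface proteins CDH17, EPCAM, CEACAM5 and CEACAM6, the lectin LGALS4 and the fatty acid carrier FABP1. They were measured in DLD1, a human colorectal adenocarcinoma cell line. They were chosen by a list of gene names. All 10 were found among the 31033 gene names on the array, 9 under the name used here and EPCAM under its older name TACSTD1, and they were covered by 16 of 50238 probes. Each of 9 RNA samples was read on an Agilent array with a single dye. The groups were 3 untreated control arrays, 3 of Lamin A/C Kd and 3 of Lamin B2 Kd, where Kd is knockdown, made with siRNA at 100 nM over 48 h. A control siRNA was not among the arrays, so the loss of a lamin and the transfection itself cannot be told apart. All samples were of 1 cell line in culture, and the methods describe the replicates of each group as independent biological ones.

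Absorptive colonocytes line the surface of the colon, take up water and salts, and carry a brush border of densely packed microvilli. CDX1 and CDX2 are homeodomain transcription factors that set intestinal identity, and HNF4A is a nuclear receptor that acts with them at intestinal and hepatic genes. Many colorectal tumours keep CDX2, EPCAM and CDH17, while proteins of the mature colonocyte are often lost. Lamins build the filament meshwork that lines the nucleus, and the study asked, among other questions, how transcript levels from each chromosome respond when they are depleted. It also examined chromosome copy number and position, and reported gains of some chromosomes in a part of the knockdown cells. The bearing of such gains on the levels given here was not tested.

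The probes are 60-base oligonucleotides. Those below, given 5′ to 3′ in lower case, are the ones that read CDX2 and LGALS4, the second of the probes for VIL1, and the probe that stayed near background for CEACAM5.
CDX2: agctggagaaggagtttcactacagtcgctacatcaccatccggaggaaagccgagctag
LGALS4: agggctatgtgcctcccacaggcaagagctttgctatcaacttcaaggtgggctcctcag
VIL1, second probe: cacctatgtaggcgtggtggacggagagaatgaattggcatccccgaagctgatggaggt
CEACAM5: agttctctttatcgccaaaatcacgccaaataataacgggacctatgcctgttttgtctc
A level below is the log2 intensity of a probe minus the 50th percentile of its array, so that 0 is the median spot of the array. Levels of different probes depend on the probe and are not set against each other. A gene with more than 1 probe is represented by its brightest.

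The arrays could read most of this identity set. In controls, 7 of the 10 genes (70.0%) were well above background on all 3 arrays, the mark of the authors' software for a spot that clears its local background, against 69.4% of all gene names. These were CDX2, HNF4A, VIL1, CDH17, LGALS4, CEACAM6 and EPCAM, and each of them was also above background on all 6 knockdown arrays. CDX1 was above background on 2 of 3 control, 2 of 3 Lamin A/C Kd and 3 of 3 Lamin B2 Kd arrays. CEACAM5 cleared background on 1 of 9 arrays, Lamin A/C Kd replicate 3, and FABP1 on 0 of 9. Of the markers of a colon epithelial cell, CDX2, VIL1, CDH17 and EPCAM were thus readable, as was the adherens junction cadherin CDH1 at 8.63 ± 0.02 (SD, n = 3) in controls, and FABP1 and CEACAM5 were not. Among markers of other cell types, 3 of 9 fibroblast and muscle markers and 6 of 8 immune and endothelial markers were above background on all 3 controls. The summed signal of the fibroblast and muscle list, in multiples of the array median, was 3.19 to 3.54 in controls, 3.21 to 3.99 in the Lamin A/C knockdown and 2.32 to 4.01 in the Lamin B2 knockdown. That of the immune and endothelial list was 7.96 to 10.3 in controls, 7.84 to 8.89 in the Lamin A/C knockdown and 7.06 to 9.22 in the Lamin B2 knockdown. Within the fibroblast and muscle list the receptor PDGFRB was called higher in the Lamin A/C knockdown (1.52, adjusted p = 0.0109). Its part in the results was not tested.

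The siRNA targets fell in their own knockdowns: LMNA to 7.04% of control in the Lamin A/C knockdown and LMNB2 to 20.0% in the Lamin B2 knockdown. The share of spots that cleared background was 65.6 to 74.1% over the arrays. Of the arrays, 8 shared a slide and Lamin B2 Kd replicate 3 was alone on another, where slide and array cannot be told apart. The median change of all tested genes was −0.04 in the Lamin A/C knockdown and −0.14 in the Lamin B2 knockdown, and a shift by the 75th percentile of each array moved them to 0.04 and 0.06. Changes relative to this median are therefore given for the called genes.

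**Figure D1:**
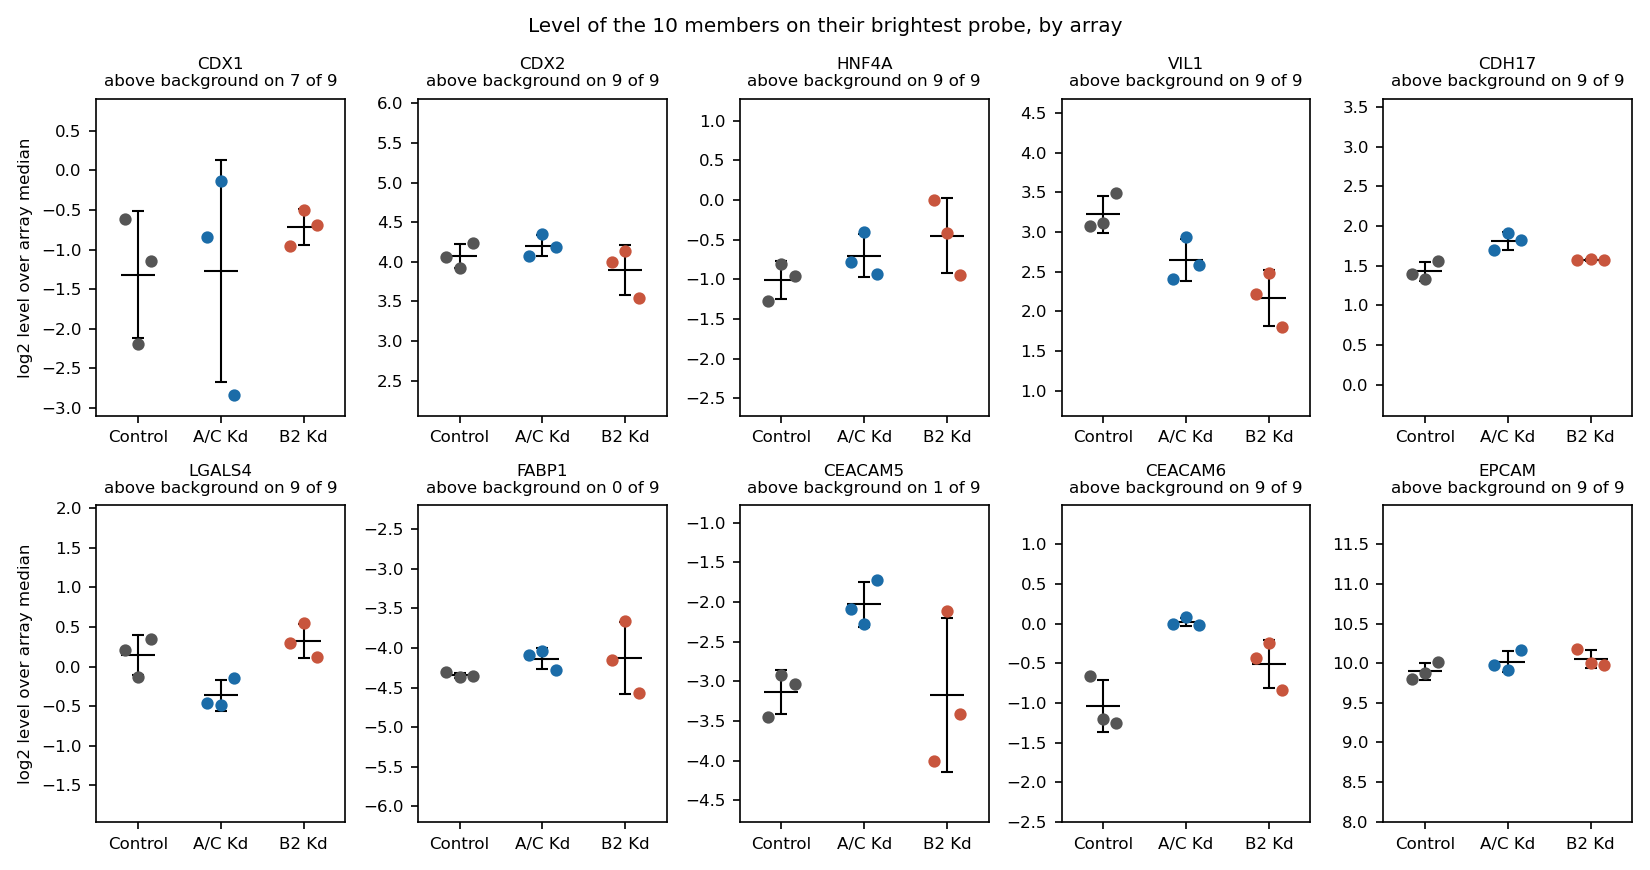
Log2 level over the array median (y axis, each panel spanning the same range of 4 log2 units) of the 10 genes on each array, by group; points are the 3 arrays of a group and bars the mean ± SD. VIL1 was lower in the Lamin B2 knockdown than in controls, CEACAM6 was higher in the Lamin A/C knockdown, and EPCAM and CDX2 stayed within a narrow band.

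Between the knockdowns and the controls, most of the tested identity genes changed by less than 2-fold. A gene was tested if all 3 arrays of a compared group had its probe above background. It was called if it changed 2-fold or more and its unadjusted limma p was under 0.05. In the Lamin A/C knockdown, 1 of 7 tested genes was called, CEACAM6, which was higher. Of all 21846 genes tested there, 2.21% were called, and 0.92% were called higher. In the Lamin B2 knockdown, 1 of 8 tested genes was called, VIL1, which was lower. Of all 22103 genes tested there, 2.03% were called, and 1.21% were called lower. Without Lamin B2 Kd replicate 3, 0 of 8 were called in the Lamin B2 knockdown, since VIL1 was then at −0.87. The other tested genes stayed under the 2-fold criterion in both knockdowns. The median change of the tested members was 0.13 in the Lamin A/C knockdown and 0.17 in the Lamin B2 knockdown (log2). Both comparisons use the same 3 controls, so their changes are not independent of each other.

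**Figure D2:**
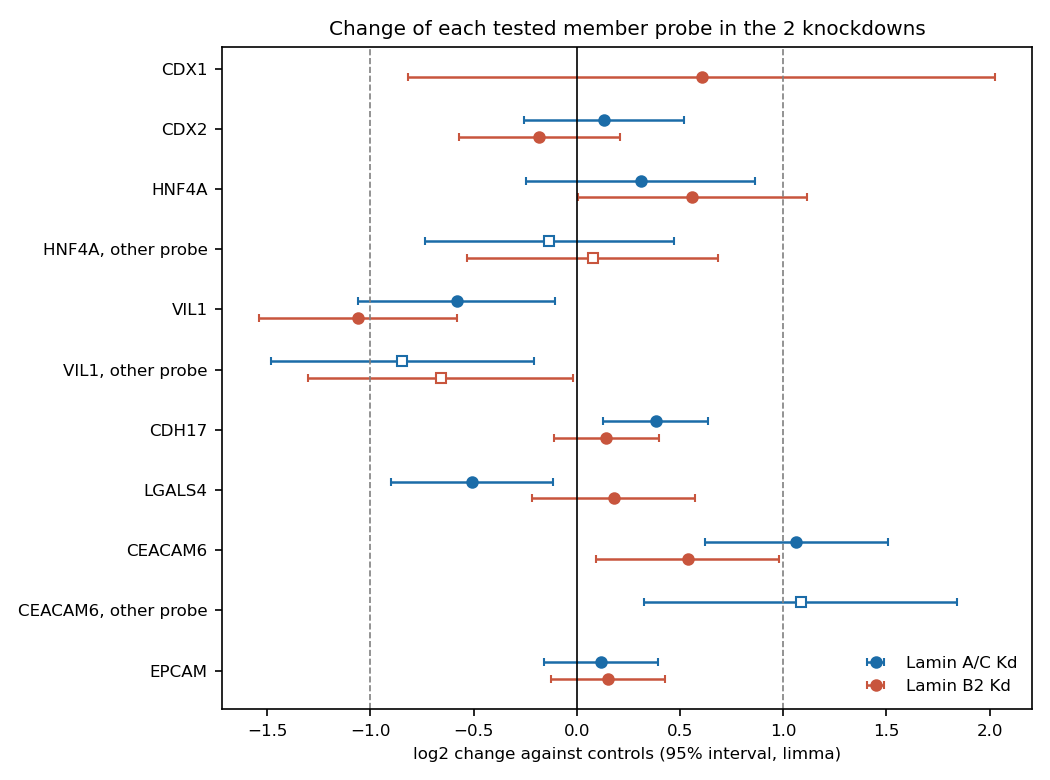
Log2 change against controls (x axis) with its 95% interval from limma for each tested probe; filled circles are the brightest probe of a gene, open squares another probe, and dashed lines mark a 2-fold change. CEACAM6 in the Lamin A/C knockdown (1.06) and VIL1 in the Lamin B2 knockdown (−1.06) are the filled points past a dashed line.

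None of the transcription factors of this program was called in either knockdown. CDX2, on chromosome 13, was at 4.06, 3.92 and 4.23 on the 3 controls. It read 4.08, 4.35 and 4.18 in the Lamin A/C knockdown and 3.998, 4.14 and 3.54 in the Lamin B2 knockdown. The groups overlapped, and the lowest of the 9 values was that of Lamin B2 Kd replicate 3. The log2 change was 0.13 in the Lamin A/C knockdown (95% interval −0.26 to 0.52, adjusted p = 0.724). For the Lamin B2 knockdown it was −0.18 (95% interval −0.57 to 0.21, adjusted p = 0.519), and this sign turned to 0.02 under both a 75th percentile shift and quantile normalization. It was −0.0036 without Lamin B2 Kd replicate 3 (adjusted p = 0.992). The intervals leave out a 2-fold change of CDX2 in either direction.

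HNF4A, on chromosome 20, read below the array median on all arrays but Lamin B2 Kd replicate 1, which was level with it. Its brightest probe read −1.28, −0.81 and −0.95 in controls, −0.77, −0.40 and −0.93 in the Lamin A/C knockdown, and 0.00, −0.42 and −0.94 in the Lamin B2 knockdown. Each knockdown had an array inside the range of the controls. The change was 0.31 in the Lamin A/C knockdown (SE 0.25, adjusted p = 0.51) and 0.56 in the Lamin B2 knockdown (SE 0.25, adjusted p = 0.209). The latter was 0.81 without Lamin B2 Kd replicate 3 (adjusted p = 0.076). A further HNF4A probe changed by −0.13 (adjusted p = 0.836) and 0.08 (adjusted p = 0.87), so the probes did not share a direction in the Lamin A/C knockdown. The HNF4A probe for another transcript was above background on 2 of 9 arrays and was not tested.

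CDX1, on chromosome 5, was close to the limit of the arrays. Its brightest probe read −0.61, −2.19 and −1.15 in controls, −0.84, −0.13 and −2.83 in the Lamin A/C knockdown, and −0.95, −0.50 and −0.68 in the Lamin B2 knockdown. The spread within the first 2 groups was larger than any difference between groups. CDX1 entered a test only through the Lamin B2 Kd arrays, where the change was 0.61 (95% interval −0.82 to 2.03, adjusted p = 0.554), an interval that holds a 2-fold rise. The other CDX1 probes, which cover nearly the same bases as each other, were above background on 1 array between them.

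VIL1, on chromosome 2, encodes villin, an actin-bundling and severing protein of brush border microvilli. The brightest VIL1 probe read 3.07, 3.11 and 3.50 in controls. In the Lamin A/C knockdown it read 2.41, 2.93 and 2.59, and in the Lamin B2 knockdown 2.22, 2.49 and 1.80. Every knockdown array lay below every control, with the order controls, Lamin A/C Kd, Lamin B2 Kd, though the knockdowns overlapped each other. In log2 units VIL1 fell by 1.06 in the Lamin B2 knockdown (SE 0.21, adjusted p = 0.034), to 48.0% of control or 2.08-fold lower. Fewer cells with a transcript and less transcript per cell cannot be told apart in such bulk RNA. In the Lamin A/C knockdown the change of VIL1 was −0.58 (SE 0.21, adjusted p = 0.127), which was not called. The difference between the knockdowns was 0.48 (95% interval 0.00 to 0.95, adjusted p = 0.167), so a stronger change in the Lamin B2 knockdown was not shown.

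The second VIL1 probe, whose bases are given above, read −0.03, 0.21 and 0.37 in controls, −0.91, −0.33 and −0.75 in the Lamin A/C knockdown, and −0.93, 0.20 and −0.71 in the Lamin B2 knockdown. It was lower in the Lamin A/C knockdown on every array, while Lamin B2 Kd replicate 2 lay among the controls. Its changes were −0.84 in the Lamin A/C knockdown (adjusted p = 0.101) and −0.66 in the Lamin B2 knockdown (adjusted p = 0.201), neither of them called. Both VIL1 probes had a negative change in both knockdowns, and they placed the knockdowns in opposite order. The call of VIL1 in the Lamin B2 knockdown was close to the 2-fold criterion: without Control replicate 3 the change was −0.93 and without Lamin B2 Kd replicate 3 it was −0.87. Relative to the median of all genes, VIL1 changed by −0.92 in the Lamin B2 knockdown, and by −0.92 and −0.89 after a 75th percentile shift and quantile normalization.

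Among the 20272 genes above background on all 9 arrays, those whose pattern was most like VIL1 were PLEKHA4 (r = 0.993), SPC24 (r = 0.98) and the gene listed as CCNU (r = 0.98). These are Pearson correlations over 9 arrays that include the group differences. PLEKHA4 changed by −0.25 in the Lamin A/C knockdown and −0.58 in the Lamin B2 knockdown, and SPC24, which encodes a kinetochore protein, by −0.37 and −0.77. The values of CCNU were −0.28 and −0.58.

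The CEACAM genes encode surface glycoproteins of the immunoglobulin superfamily. CEACAM5 is the carcinoembryonic antigen used as a serum marker of colorectal cancer, and CEACAM6 is its close relative, both anchored to the membrane by a lipid and both on chromosome 19. The brightest CEACAM6 probe read −0.66, −1.20 and −1.26 in controls, 0.00, 0.08 and −0.01 in the Lamin A/C knockdown, and −0.44, −0.24 and −0.84 in the Lamin B2 knockdown. All Lamin A/C Kd arrays lay above all others and within 0.1 of each other, while Lamin B2 Kd overlapped the controls through replicate 3. In log2 units CEACAM6 rose by 1.06 in the Lamin A/C knockdown (SE 0.20, adjusted p = 0.0125), a fold change of 2.09. Against controls, the Lamin B2 knockdown changed it by 0.54 (SE 0.20, adjusted p = 0.149), and the difference between the knockdowns was 0.53 (95% interval 0.09 to 0.97, adjusted p = 0.105).

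A second CEACAM6 probe was dimmer. It read −3.01, −2.03 and −2.37 in controls, −1.25, −1.44 and −1.48 in the Lamin A/C knockdown, and −2.30, −2.63 and −1.33 in the Lamin B2 knockdown. It was above background on 1 of 3 controls, 3 of 3 Lamin A/C Kd arrays and 1 of 3 Lamin B2 Kd arrays. Its change in the Lamin A/C knockdown was 1.08 (SE 0.34, adjusted p = 0.0796), which met the 2-fold and unadjusted criterion but was tested only because that group was high. With normexp background correction and its added offset of 50, which were changed together, the CEACAM6 change was 0.48 (adjusted p = 0.00934). Without Control replicate 2 it was 0.98 (adjusted p = 0.0565) and without Control replicate 3 it was 0.96 (adjusted p = 0.0628), both just under 2-fold. Relative to the median of all genes CEACAM6 changed by 1.10, and by 1.10 and 1.01 after a 75th percentile shift and quantile normalization.

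**Figure D3:**
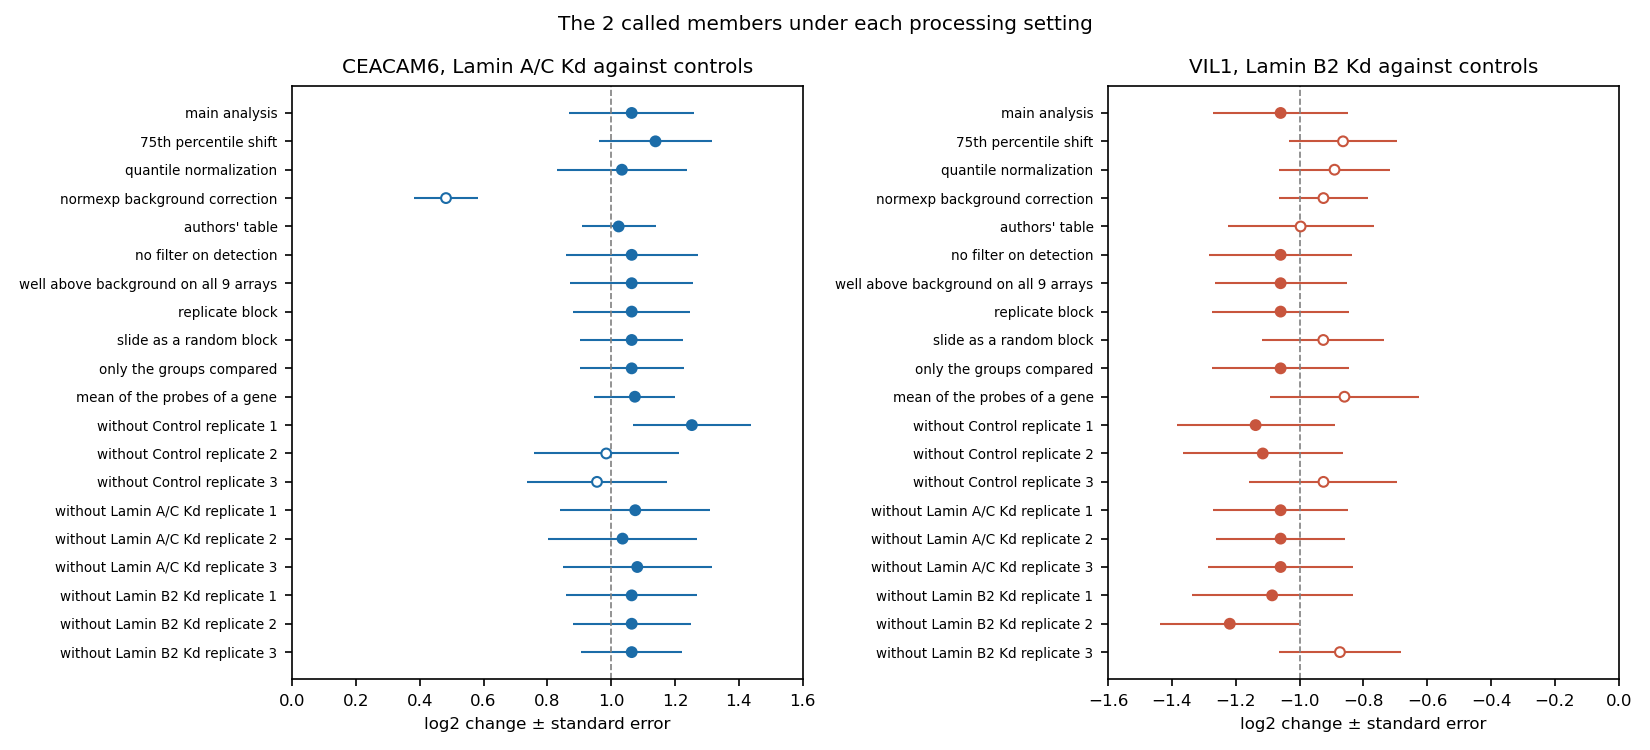
Log2 change ± standard error (x axis) of CEACAM6 in the Lamin A/C knockdown and of VIL1 in the Lamin B2 knockdown under the main analysis and 19 alternatives; filled points were called, and the dashed line marks 2-fold. All points keep their sign, and CEACAM6 lies farthest from its main value with normexp and its offset of 50 (0.48).

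CEACAM5 could not be tested. Its probe read −3.45, −2.92 and −3.03 in controls, −2.08, −2.28 and −1.72 in the Lamin A/C knockdown, and −4.01, −2.11 and −3.41 in the Lamin B2 knockdown. The Lamin A/C Kd values were above the controls, but only 1 of them cleared background, so no fold is given. The start sites of the CEACAM5 and CEACAM6 genes have alike upstream sequence. The 250 bases before each start, on the plus strand of chromosome 19 in RefSeq on GRCh38.p14 (chr19:41708376-41708625 and chr19:41755280-41755529), were identical at 190 of 242 aligned positions (78.5%). Capitals mark the letters CACGTG, an E-box, which read the same on both strands.
CEACAM5: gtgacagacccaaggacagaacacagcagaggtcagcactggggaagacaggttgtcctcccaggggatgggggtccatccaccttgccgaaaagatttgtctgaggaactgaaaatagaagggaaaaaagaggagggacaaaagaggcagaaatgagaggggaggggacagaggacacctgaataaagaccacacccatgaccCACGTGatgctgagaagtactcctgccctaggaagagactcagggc
CEACAM6: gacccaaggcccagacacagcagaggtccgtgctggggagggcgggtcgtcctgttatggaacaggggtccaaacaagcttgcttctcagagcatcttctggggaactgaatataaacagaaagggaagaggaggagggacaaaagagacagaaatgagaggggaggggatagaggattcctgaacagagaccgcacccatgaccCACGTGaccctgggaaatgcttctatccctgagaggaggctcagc
Both windows held this E-box, and since they are alike in sequence their matches are not independent of each other. It stood in 6.34% of 35116 RefSeq windows of the same kind. Windows were given for 6 of the 10 genes, 7 windows in all, and the other 5 did not hold it. The letters CATAAA or TTTATG, a common CDX site searched on both strands, stood in 1 of the 7 windows, that of FABP1, and in 9.64% of all windows. A match describes the letters and not the binding of a factor.

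The genes with the pattern most like CEACAM6 over the 9 arrays were 3 transcripts listed by clone or cluster name: HsapiAK026561 (r = 0.965), THC2647392 (r = 0.946) and AF088076 (r = 0.943). Their changes in the Lamin A/C knockdown were 0.54, 0.11 and 0.94, in that order.

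LGALS4 and CDH17 moved by less than 2-fold in the Lamin A/C knockdown, in opposite directions. LGALS4, on chromosome 19, encodes galectin-4, a lectin of the digestive tract that binds sugars on apical lipid rafts. It read 0.21, −0.13 and 0.35 in controls, −0.46, −0.49 and −0.15 in the Lamin A/C knockdown, and 0.29, 0.55 and 0.12 in the Lamin B2 knockdown. The Lamin A/C Kd arrays lay below all others, by a narrow gap at replicate 3, and the Lamin B2 Kd arrays overlapped the controls. The change was −0.51 in the Lamin A/C knockdown (SE 0.17, adjusted p = 0.107) and 0.18 in the Lamin B2 knockdown (SE 0.17, adjusted p = 0.529). The knockdowns themselves differed by −0.69, Lamin A/C Kd minus Lamin B2 Kd (SE 0.17, adjusted p = 0.0283). This was the smallest adjusted p of the 8 members tested between the knockdowns, none of which was called, where 4.19% of all genes were.

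CDH17, on chromosome 8, encodes liver-intestine cadherin, an adhesion molecule of the lateral membrane and a target of CDX2. It read 1.39, 1.33 and 1.56 in controls, 1.70, 1.91 and 1.82 in the Lamin A/C knockdown, and 1.57, 1.58 and 1.56 in the Lamin B2 knockdown. Lamin A/C Kd was above all other arrays. Lamin B2 Kd cleared the controls only by a narrow gap, with replicate 3 at 1.565 and Control replicate 3 at 1.562. The change was 0.38 in the Lamin A/C knockdown (SE 0.11, adjusted p = 0.0692) and 0.14 in the Lamin B2 knockdown (SE 0.11, adjusted p = 0.438).

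EPCAM, on chromosome 2, encodes an adhesion molecule found on nearly all simple epithelia. It read 9.81, 9.88 and 10.02 in controls, 9.98, 9.91 and 10.17 in the Lamin A/C knockdown, and 10.18, 10.0001 and 9.98 in the Lamin B2 knockdown. The groups overlapped. Its changes were 0.12 (95% interval −0.16 to 0.40, adjusted p = 0.633) and 0.15 (95% interval −0.12 to 0.43, adjusted p = 0.45), which leaves out a 2-fold change in both knockdowns. FABP1, on chromosome 2, encodes the liver-type fatty acid-binding protein of absorptive cells, and its probe read between −4.57 and −3.66 on all 9 arrays without clearing background.

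Counted without the fold criterion, 4 of the 7 members tested in the Lamin A/C knockdown had an unadjusted p under 0.05 (VIL1, CDH17, LGALS4 and CEACAM6), against 23.2% of all genes. The same 4 were the members whose Lamin A/C Kd arrays did not overlap the controls, against 40.9% of all genes. In the Lamin B2 knockdown, 3 of 8 had an unadjusted p under 0.05 (HNF4A, VIL1 and CEACAM6), against 24.4%, and 2 of 8 (VIL1 and CDH17) did not overlap the controls, against 32.9%. With the adjusted p in place of the unadjusted one, the call of CEACAM6 held in the Lamin A/C knockdown, where 1.79% of all genes passed, and that of VIL1 in the Lamin B2 knockdown, where 0.995% did.

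Other genes of the intestinal epithelium were counted from lists of known function. Those tested were 14 intestinal transcription factors, 15 brush border genes, 17 transport, digestion and lipid genes and 15 genes of a surface and adhesion list. None of them was called in either knockdown at 2-fold. Below 2-fold, 6 of these 61 genes had an adjusted p under 0.05 in the Lamin A/C knockdown, and all 6 were lower. In the Lamin B2 knockdown, 0 of the 61 had one, while 8 had an unadjusted limma p under 0.05, against 24.4% of all genes, as did 15 in the Lamin A/C knockdown, against 23.2%. Of all genes tested, 8.94% had an adjusted p under 0.05 in the Lamin A/C knockdown, 5.79% being lower and 3.15% higher. In the Lamin B2 knockdown 4.38% had one, 3.92% being lower and 0.461% higher. Without Lamin B2 Kd replicate 3, which enters the pooled estimate of the spread, 11 were lower and 3 higher in the Lamin A/C knockdown with an adjusted p under 0.05, against 13.5% and 7.42% of all genes. The 6 genes found with all arrays were FOXA2, PLS1, CA2, LCT, ESRP2 and TSPAN8.

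**Figure D4:**
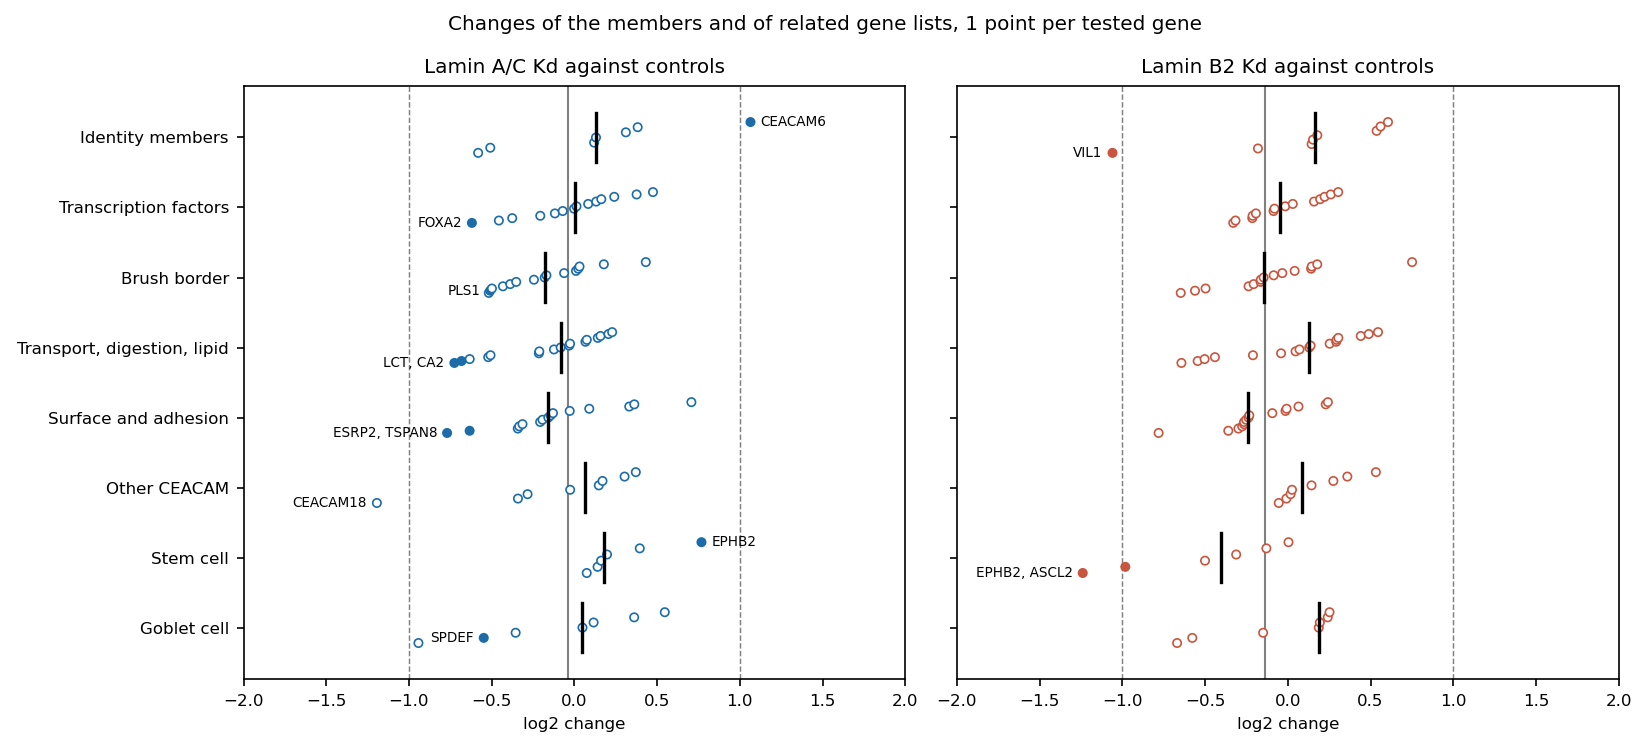
Log2 change (x axis) of every tested gene of 8 lists in each knockdown; filled points have an adjusted p under 0.05, black ticks are list medians, the gray line is the median of all genes, and dashed lines mark a 2-fold change. Names are printed for genes that were called or had an adjusted p under 0.05, and in the 4 lists from transcription factors to surface genes all of these lie left of 0 in the Lamin A/C knockdown.

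The brush border list holds the partners of VIL1 in the microvillus. In the Lamin A/C knockdown it had 5 of 15 genes with an unadjusted limma p under 0.05, against 23.2% of all genes in either direction. All 5 were lower, as were 3215 of the 5067 genes behind the 23.2%. In the Lamin B2 knockdown the list had 3 of 15, against 24.4%. Its median change was −0.18 in the Lamin A/C knockdown and −0.15 in the Lamin B2 knockdown, beside −0.04 and −0.14 for all genes. PLS1, an actin-bundling protein of the microvillus core, was at 3.57, 3.50 and 3.59 in controls and 3.01, 2.91 and 3.22 in the Lamin A/C knockdown, a fall by 0.51 on the log2 scale (adjusted p = 0.0434). PLS1 changed by 0.14 in the Lamin B2 knockdown (adjusted p = 0.508). EPS8L3, a relative of the actin regulator EPS8, changed by −0.50 (adjusted p = 0.116) and −0.21 (adjusted p = 0.473). Leaving out Lamin B2 Kd replicate 3, which enters the pooled spread, gave its Lamin A/C change an adjusted p of 0.00692. More of all genes passed in that setting, as given above.

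Of the transcription factors, FOXA2, a forkhead factor of endodermal cells, was at 4.57, 4.31 and 4.64 in controls and 3.96, 3.85 and 3.86 in the Lamin A/C knockdown, a fall by 0.62 (adjusted p = 0.0252). Its change in the Lamin B2 knockdown was −0.32 (adjusted p = 0.205). KLF5, a zinc finger factor of crypt cells, changed by −0.46 (adjusted p = 0.0991) and −0.19 (adjusted p = 0.439). Leaving out Lamin B2 Kd replicate 3 gave its Lamin A/C change an adjusted p of 0.0268. Among the transport and digestion genes, CA2, a carbonic anhydrase of the colonocyte, was at 4.60, 4.55 and 4.61 in controls and 4.07, 3.90 and 3.76 in the Lamin A/C knockdown, a fall by 0.68 (adjusted p = 0.0165). LCT, the lactase gene, fell by 0.73 (adjusted p = 0.0462) from −0.57, −0.86 and −0.80 in controls. The Lamin B2 knockdown changed them by 0.05 (adjusted p = 0.841) and −0.21 (adjusted p = 0.498). KRT20, a keratin of mature colonocytes, changed by −0.12 (adjusted p = 0.855) and 0.55 (adjusted p = 0.263).

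The adhesion list was led by ESRP2, an epithelial splicing regulator and not itself an adhesion molecule. It was at 7.73, 7.66 and 7.81 in controls and 6.87, 6.93 and 7.10 in the Lamin A/C knockdown. ESRP2 fell by 0.77 there (adjusted p = 0.00917) and changed by 0.06 in the Lamin B2 knockdown (adjusted p = 0.769). TSPAN8, a tetraspanin of epithelial and carcinoma cells, fell by 0.63 (adjusted p = 0.015) and changed by −0.26 in the Lamin B2 knockdown (adjusted p = 0.227). CDH1 changed by −0.14 (adjusted p = 0.613) and −0.01 (adjusted p = 0.979). Tested directly, Lamin A/C minus Lamin B2 knockdown, the difference passed adjustment for ESRP2 (−0.83, adjusted p = 0.00388), CA2 (−0.73, adjusted p = 0.00799) and PLS1 (−0.65, adjusted p = 0.011). It did not for FOXA2 (−0.30, adjusted p = 0.176), LCT (−0.52, adjusted p = 0.104) and TSPAN8 (−0.37, adjusted p = 0.075).

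Over all 59 genes of these lists tested between the knockdowns, 4 were lower and 2 higher in the Lamin A/C knockdown with an adjusted p under 0.05, against 4.53% and 11.2% of all genes. Besides ESRP2, CA2 and PLS1 these were DPP4, a brush border peptidase (−0.51, adjusted p = 0.0319), FOXA3, a forkhead factor (0.80, adjusted p = 0.0114), and CLDN3, a tight junction claudin (1.07, adjusted p = 0.00899). CLDN3 was called, as was GUCA2A, which encodes the hormone guanylin (−1.07, adjusted p = 0.0701). GUCA2A was above background on 1 of 3 Lamin A/C Kd and 3 of 3 Lamin B2 Kd arrays. DPP4 was so on 2 of 3 and 3 of 3, so both genes were tested only because the Lamin B2 Kd arrays were high. Without Lamin B2 Kd replicate 3, 9 of 60 were lower and 2 higher, against 8.15% and 11% of all genes. Neither call held in that setting, CLDN3 being at 0.85 (adjusted p = 0.0087) and GUCA2A at −0.81 (adjusted p = 0.16). DPP4, FOXA3, CLDN3 and GUCA2A are named after their values were seen.

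In the other CEACAM genes, 1 of 8 tested was called in the Lamin A/C knockdown and 0 in the Lamin B2 knockdown, where 0 of 8 also had an unadjusted p under 0.05. The called gene was CEACAM18, above background on 3 of 3 controls and 0 of 3 Lamin A/C Kd arrays, at least 1.37-fold lower with the Lamin A/C Kd arrays set at their lowest readable signal (adjusted p = 0.167). It was no longer called without Lamin A/C Kd replicate 2 or without any 1 of the controls. CEACAM1, an adhesion molecule of many epithelia, changed by 0.30 in the Lamin A/C knockdown (adjusted p = 0.158) and 0.14 in the Lamin B2 knockdown (adjusted p = 0.464). CEACAM20, a brush border member of the family, changed by 0.37 (adjusted p = 0.485) and 0.53 (adjusted p = 0.276). The latter was carried by Lamin B2 Kd replicate 3 at 4.52 against 3.41 and 3.29, and was 0.14 without that array. With that array left out of the pooled spread, the Lamin A/C change of CEACAM20 had an adjusted p of 0.0226. Its Lamin A/C Kd arrays, at 3.48, 3.67 and 3.57, lay above all controls. No CEACAM gene tested in the Lamin A/C knockdown other than CEACAM6 was called higher. CEACAM5, whose Lamin A/C Kd values lay above the controls, could not be tested.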

How the data were processed

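Per the labels and the study's methods, RNA of DLD1 cells was hybridized to 9 single-color Agilent arrays and read with Feature Extraction 10.5. The authors deposited for each spot an intensity after background subtraction and the software's marks for spots above background, saturated or outlying; no spot was saturated. Their series table, deposited as log2 signals after a 50th percentile shift and centering of each row, served only as an alternative. The scaling and the threshold follow the study's methods, which do not name the test.

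Each array's 50th percentile was subtracted from its log2 intensities, and the spots of a probe were averaged without outliers. A probe was above background on an array if at least 0.5 of its spots were so marked. A single linear model over all 9 arrays and all tested probes gave limma's moderated test between groups (R 4.3.3 with limma 3.58.1 and the package data.table, version 1.17.8), with Benjamini-Hochberg adjustment over all of them. The alternatives were a 75th percentile shift, quantile normalization, normexp with an offset of 50, the authors' table, other filters on detection, the replicate number as a block, the slide as a random block, only the compared groups, the mean of the probes of a gene, other thresholds, and each array left out in turn. For the genes of the other lists the arrays were left out as a choice made after seeing the data. Leaving out Lamin B2 Kd replicate 3 kept the Lamin A/C changes themselves and lowered many adjusted p values. In that setting 13.5% of all genes were lower and 7.42% higher with an adjusted p under 0.05, against 5.79% and 3.15% with all arrays. The table's Lamin B2 Kd set numbers differ from those of the sample titles, so its columns were used by group.

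The members and gene lists were chosen with earlier results of these data known. From each list the genes named are up to 4 called in either knockdown and, where fewer than 2 were called, up to 2 more with the smallest p. KRT20 and CDH1 are named as markers of the cell type. Gene names were matched to RefSeq on GRCh38.p14 for chromosomes; SLC51B and PHGR1 were not found by name. In simulated arrays, 200 probes differed by 1.5 log2 units. Of these, 98.0% were recovered in the Lamin A/C knockdown and 99.0% in the Lamin B2 knockdown. With the adjusted p in place of the unadjusted one, 80% and 81% were recovered. Without the adjustment, 144 and 121 unchanged probes were called out of 33042 and 33443 tested. Recovery at the size of the calls of CEACAM6 (1.06) and VIL1 (−1.06) was not tested.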

Additional observations from a re-analysis of the deposited data

Results flagged for a closer look

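LGALS4 is given again because its response differed between the knockdowns in a direct test. Lamin A/C Kd minus Lamin B2 Kd was −0.69 on the log2 scale (adjusted p = 0.0283), with levels of −0.46, −0.49 and −0.15 in Lamin A/C Kd against 0.29, 0.55 and 0.12 in Lamin B2 Kd. The fold did not reach 2 and the gene was not called. It was 1 of 8 members with an adjusted p under 0.05 in this test, which 15.7% of all 21829 genes tested between the knockdowns met. The adjusted p ranged from 0.00508 to 0.103 over 19 alternatives, and the value from −0.81 to −0.35, the last with normexp and its offset of 50.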

How the results depend on the processing

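Of the 2 called changes, CEACAM6 in the Lamin A/C knockdown was called in 16 of 19 alternatives (0.48 to 1.25) and VIL1 in the Lamin B2 knockdown in 11 of 19 (−1.22 to −0.86), and neither turned its sign. The number of members called in the Lamin A/C knockdown, 1 in the main analysis, was 0 with normexp background correction and 2 both in the authors' table and with no filter on detection, where CEACAM5 was added. Leaving out 1 array at a time gave 0 to 1, with 0 without Control replicate 2 or 3. The number called in the Lamin B2 knockdown, 1 in the main analysis, was 0 with a 75th percentile shift, quantile normalization, normexp, the authors' table, the slide as a random block and the mean of the probes of a gene. It was 0 to 1 with 1 array left out, and 0 without Control replicate 3 or Lamin B2 Kd replicate 3. In the settings with a count of 0 in the Lamin B2 knockdown, VIL1 lay at −0.86 to −0.997, so the fold criterion and not the direction decided the count. Its adjusted limma p ranged from 0.00404 to 0.151 over the 19 alternatives, and that of CEACAM6 in the Lamin A/C knockdown from 0.00273 to 0.0628. Between the knockdowns 0 members were called, and 1 in the authors' table and with no filter (CEACAM5) and at 1.5-fold (LGALS4).

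Signs turned only for changes that were not called. HNF4A in the Lamin A/C knockdown was −0.0033 in the authors' table. CDX2 in the Lamin B2 knockdown was 0.015 with a 75th percentile shift and 0.021 with quantile normalization. Between the knockdowns, with 1 array left out, EPCAM ranged from −0.11 to 0.031, above 0 without Lamin A/C Kd replicate 2 (0.020) and Lamin B2 Kd replicate 1 (0.031), and CDX1 ranged from −1.13 to 0.22, above 0 without Lamin A/C Kd replicate 3. The causes were not tested. The replicate numbers did not pair the arrays: of 9 pairs with the same number, 1 had a correlation over 0.1, the range being −0.086 to 0.15. With the replicate number as a block, the count of called members was 1 in the Lamin A/C knockdown and 1 in the Lamin B2 knockdown, VIL1 having an adjusted p of 0.0706. Signal over background limits what can be said of CDX1, CEACAM5 and FABP1, and 3 arrays per group limit the precision of all changes.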

Other observations

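Markers of the other epithelial lineages were followed in the same arrays. Of 6 tested intestinal stem cell markers, 1 was called in the Lamin B2 knockdown: EPHB2, a crypt receptor tyrosine kinase, at 4.09, 4.15 and 4.38 in controls and 3.08, 3.26 and 2.56 in the Lamin B2 knockdown, fell by 1.24 on the log2 scale (adjusted p = 0.0143). ASCL2, a stem cell transcription factor, fell by 0.98 there (adjusted p = 0.0244), just under 2-fold. Without Lamin B2 Kd replicate 3, the array alone on its slide, EPHB2 fell by 1.04 (adjusted p = 0.0106) and ASCL2 by 0.76 (adjusted p = 0.00741). In the Lamin A/C knockdown no stem cell marker was called, EPHB2 rose by 0.77 (adjusted p = 0.0351), ASCL2 changed by 0.20 (adjusted p = 0.576) and RGMB by 0.39 (adjusted p = 0.0892). With Lamin B2 Kd replicate 3 left out, the adjusted p there was 0.109 for ASCL2 and 0.0441 for RGMB.

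Of 7 tested goblet cell markers 0 were called in either knockdown, with SPDEF, a goblet cell transcription factor, falling by 0.55 in the Lamin A/C knockdown (adjusted p = 0.0452) and SPINK4 at 0.55 (adjusted p = 0.0569). For SPINK4 the adjusted p was 0.012 with Lamin B2 Kd replicate 3 left out. PLA2G2A, a secreted phospholipase of Paneth cells, was at −1.06, −0.87 and −1.05 in controls and 0.11, 0.26 and 0.11 in the Lamin A/C knockdown, and rose by 1.15 (adjusted p = 0.00573), with a change of 0.10 in the Lamin B2 knockdown (adjusted p = 0.733), while the Paneth defensin DEFA6 changed by −0.17 (adjusted p = 0.884). The hormone gene PYY was called in the Lamin B2 knockdown at 1.13 (adjusted p = 0.0853), on arrays that read 0.77, −0.20 and 1.34 against −0.45, −0.49 and −0.55 in controls. Without Lamin B2 Kd replicate 3 it was not called, at 0.78 (adjusted p = 0.139). The tuft cell channel gene TRPM5 changed by 0.82 (adjusted p = 0.278) and CHGA by 0.28 (adjusted p = 0.313). PDGFRB, a receptor of fibroblasts and pericytes, rose by 1.52 in the Lamin A/C knockdown (adjusted p = 0.0109), from a level above background on 2 of 3 controls, so that it was tested only through the Lamin A/C Kd arrays. ACTA2 changed by −0.72 in the Lamin B2 knockdown (adjusted p = 0.0809), VIM by −0.35 (adjusted p = 0.256), and CD68 by −0.89 in the Lamin A/C knockdown (adjusted p = 0.211), where Control replicate 1 stood at 2.17 against 0.50 and 0.59. VWF changed by 0.23 in the Lamin A/C knockdown (adjusted p = 0.388). Of the gastric and liver markers, TFF1 and SERPINA1 each changed by −0.42 in the Lamin A/C knockdown (adjusted p = 0.111 and 0.0963), and 0 of 3 tested were called in either knockdown. Their adjusted p there was 0.0117 and 0.0493 with Lamin B2 Kd replicate 3 left out. In that setting 13.5% of all genes were lower with an adjusted p under 0.05, against 5.79% with all arrays.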
